A study of Mus musculus with 4 samples.

Results

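A set of 10 imprinted genes, among them the neighbours *H19* and *Igf2*, was followed in the hearts of 8-week-old mice that carry 1 mutant copy of *Ctcf*. The genes were *H19*, *Igf2*, *Meg3*, *Peg3*, *Kcnq1ot1*, *Cdkn1c*, *Grb10*, *Impact*, *Snrpn* and *Ndn*. They were chosen by symbol, and each symbol had 1 row among the 55401 genes of the expression table, so all 10 members were found. The study examined the CTCF-R567W substitution, which changes an arginine in a zinc finger of CTCF to tryptophan. RNA was sequenced from the hearts of 2 wild-type mice and 2 heterozygous mice (*Ctcf* +/R567W), with 1 library per mouse. The mice were C57BL/6N, the substitution was introduced into the germline by CRISPR/Cas9 and is present in every tissue, and no Cre driver or treatment was used. Homozygous mice and embryonic hearts were not analysed here.

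An imprinted gene is transcribed only or mainly from 1 parental copy, in many cases because DNA methylation laid down in the egg or the sperm marks a nearby control region. CTCF is a zinc-finger protein that binds DNA and shapes chromatin loops. At the *H19* and *Igf2* locus it binds the unmethylated maternal control region and insulates *Igf2* from enhancers shared with *H19*, so that *H19* is expressed from the maternal copy and *Igf2* from the paternal copy. Many imprinted genes act on fetal growth and are turned down in most tissues after birth. The values here are sums over both parental copies, so they do not tell which copy was transcribed.

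*H19* lies at chr7:142575529-142578143 and *Igf2* at chr7:142650766-142666816, both on the minus strand of GRCm38 (GENCODE M21), 72.6 kb apart. *H19* is an untranslated RNA and *Igf2* is protein coding. Each gene carries a microRNA whose mature strands are shown here with the seed, bases 2 to 8, in capitals, because they are the products of this locus that act on other transcripts. The sequences and positions are those of RefSeq (GRCm38.p6).
miR-675-5p: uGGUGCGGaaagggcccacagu
miR-675-3p: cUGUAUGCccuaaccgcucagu
miR-483-5p: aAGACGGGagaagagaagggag
miR-483-3p: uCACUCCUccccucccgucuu
The 4 seeds are all different. The miR-675 strands lie at chr7:142577112-142577133 and chr7:142577078-142577099, within an exon of 3 of the 7 annotated *H19* transcripts. The miR-483 strands lie at chr7:142654968-142654989 and chr7:142654932-142654952, within *Igf2* and in an exon of 0 of its 9 transcripts, that is, in intron sequence. Both microRNA genes, *Mir675* and *Mir483*, were listed at 0 in all 4 libraries, which were made from polyadenylated RNA and do not measure mature microRNAs.

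The 250 bases before an annotated start are shown for *Igf2*, the ligand of the locus, and for *Snrpn*, the tested member whose genotypes did not overlap. Each CpG is in capitals. A CpG is a site that DNA methylation can mark, but methylation was not measured here. Both windows lie on the minus strand and overlap no annotated exon. Each is the exon-free window of its gene with the most CpGs, counted from 250 bases before to 50 bases after the start. The bases after this *Snrpn* start were not found in a GENCODE transcript of the gene.
Igf2 (chr7:142657497-142657746): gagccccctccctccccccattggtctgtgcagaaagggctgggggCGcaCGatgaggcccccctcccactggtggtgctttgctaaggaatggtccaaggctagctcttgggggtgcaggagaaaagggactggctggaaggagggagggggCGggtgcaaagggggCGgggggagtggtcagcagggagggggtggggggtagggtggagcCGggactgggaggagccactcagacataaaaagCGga
Snrpn (chr7:60005200-60005449): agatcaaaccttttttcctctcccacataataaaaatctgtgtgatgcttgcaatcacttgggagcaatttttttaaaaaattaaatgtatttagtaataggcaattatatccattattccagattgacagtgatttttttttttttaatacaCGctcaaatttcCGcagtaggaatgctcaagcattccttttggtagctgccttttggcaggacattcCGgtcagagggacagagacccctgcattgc
The *Igf2* window holds 6 CpGs, the median of all windows being 6, and 49.6% of all windows hold fewer. The other *Igf2* windows hold 22, 10 and 1 CpGs before the start, those with 22 and 10 overlapping an exon. The *Snrpn* window holds 3 CpGs, and 29.0% of all windows hold fewer. The other *Snrpn* windows hold 4, 3 and 2 CpGs before the start. The 14-letter core motif of CTCF at the *H19* control region, CCGCGNGGNGGCAG, was searched on both strands in windows from 250 bases before to 50 bases after each start. It was found in 12 of 32851 windows (0.0365%) and in 0 of the 15 windows of the 7 members that have one. *H19*, *Cdkn1c* and *Impact* had no window. The *H19* control region lies outside these windows and was not analysed here.

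The table gives relative transcript abundance (TPM), a level per transcript length. The hearts differed in several general measures. Genes of the mitochondrial genome (mt-) took 64.7% (replicate 1) and 61.1% (replicate 2) of TPM in the wild type, and the same genes took 68.6% and 62.6% in heterozygotes, in that order throughout. For a common scale, the TPM of a library were divided by its median-of-ratios factor, and the result is called scaled TPM. The factors were 1.08 and 1.27 in the wild type, against 0.821 and 0.91 in the heterozygotes. Without factors, the median log2 fold change (heterozygous minus wild type) over all tested genes was -0.35 as deposited and -0.31 with mt- genes removed. The shift of the median was thus similar in size with and without mt- genes, and its cause was not tested. Ventricular cardiomyocyte genes were abundant in all 4 hearts, at summed scaled TPM of 20500 to 25400. The 6 atrial markers summed to 811 and 2350 in the wild type and to 1910 and 3260 in the heterozygotes. The 7 erythroid markers summed to 934 and 981 in the wild type and to 962 and 2100 in the heterozygotes. The 10 fibroblast markers summed to 164 and 214 against 141 and 162, the 10 endothelial markers to 697 and 734 against 624 and 704, the 10 mural cell markers to 189 and 191 against 142 and 179, and the 8 epicardial markers to 11.8 and 12.5 against 11.5 and 16.4. Single genes weigh heavily in these sums. *Gsn* gave 85.9 and 112 against 71.1 and 87.7 of the fibroblast sum. *Fabp4* gave 379 and 409 against 288 and 326 of the endothelial sum, and *Des* 91.9 and 103 against 69.2 and 92.2 of the mural sum. Of the 10 endothelial markers 5 were wholly lower in heterozygotes and 2, *Egfl7* and *Tie1*, wholly higher, where 24.0% and 23.0% of all tested genes were. As deposited, *Egfl7* overlapped and *Tie1* was wholly lower. In whole-heart RNA, fewer cells of a type and less RNA per cell cannot be told apart.

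*Ctcf* itself was measured at 6.15 and 5.99 scaled TPM in the wild type and at 7.48 and 5.71 in the heterozygotes. The genotypes overlapped (log2 fold change 0.09, SE 0.16, limma adjusted p = 0.834). A substitution need not change the level of the transcript, so this value does not check the genotype labels.

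In these adult hearts the members covered a wide range of levels. *Meg3* was the most abundant, at 44.1 to 59.6 scaled TPM, and exceeded *Grb10*, the next member, by 3.87 to 6.63 times in every library. *Grb10*, *Cdkn1c*, *Impact*, *Peg3*, *Igf2*, *Snrpn* and *H19* followed between 11.4 and 2.08 scaled TPM. *Ndn* lay at 0.463 to 0.538 and *Kcnq1ot1* at 0.0552 to 0.0769. *Grb10* exceeded *Cdkn1c* in 2 of 4 libraries, *Peg3* exceeded *Igf2* in 3 of 4, and *Snrpn* exceeded *H19* in 3 of 4, so these neighbours in the order were not separated by the spread between mice. The other neighbouring pairs kept their order in all 4 libraries, although *Cdkn1c* exceeded *Impact* by only 1.02 to 1.25 times. *H19* lay in the lower part of the tested genes of each library, at percentiles 39.2 and 24.6 in the wild type, against 42.7 and 38.7 in the heterozygotes. *Igf2* lay somewhat above the middle, at percentiles 61.2 and 58.7 and at 59.8 and 64.9.

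**Figure D1:**
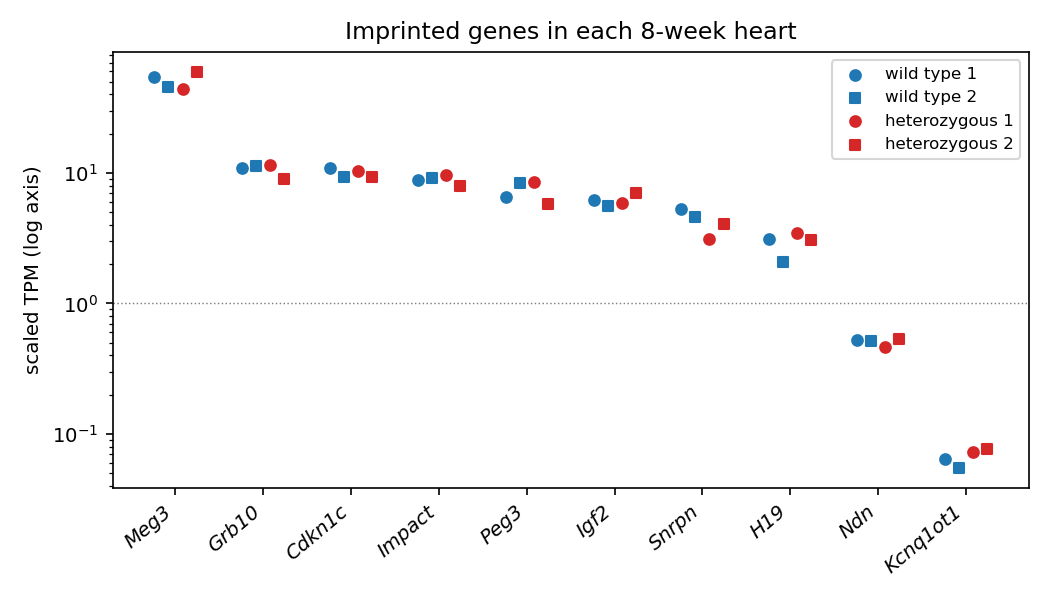
Scaled TPM (log axis) of the 10 imprinted genes in each of the 4 hearts, ordered by mean level, with circles for replicate 1 and squares for replicate 2 of each genotype. The dotted line marks 1 TPM. The red and blue points are intermixed for most genes, while both heterozygous points of *Snrpn* (3.13 and 4.09) lie below both wild-type points (5.30 and 4.59).

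Whether the heterozygous hearts differed in these genes was tested with limma on log2(scaled TPM + 1) over all 10036 genes whose TPM averaged 1 or more over the libraries, with Benjamini-Hochberg adjustment over all of them. The call required both an adjusted p below 0.05 and a change of more than 1.5 times. Of the 10 members 8 were tested, and *Ndn* and *Kcnq1ot1* lay below the filter. None of the 8 was called, 0 of 8 in either direction, where 0.0% of all tested genes were called higher and 0.0299% lower. The latter are 3 genes, *Gm14325*, *Gm8186* and *Zc3h11a*, named after their values were seen. With so few calls over the whole table, 0 calls among 8 genes is near the background. Before adjustment, 0 of the 8 members and 12.3% of all tested genes had p below 0.05. The heterozygous values lay wholly below the wild-type values for 1 of the 8, *Snrpn*, where 24.0% of all tested genes did so, and wholly above for 0 of 8, where 23.0% did so. In either direction, 1 of 8 members and 47.0% of all tested genes had genotypes that did not overlap. The median log2 fold change was -0.03 over the 8 members and -0.01 over all tested genes. With 2 mice in each group, an exact permutation test of 1 gene cannot go below p = 0.333. The mice of a group are separate animals, and nothing else in the labels distinguishes them.

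**Figure D2:**
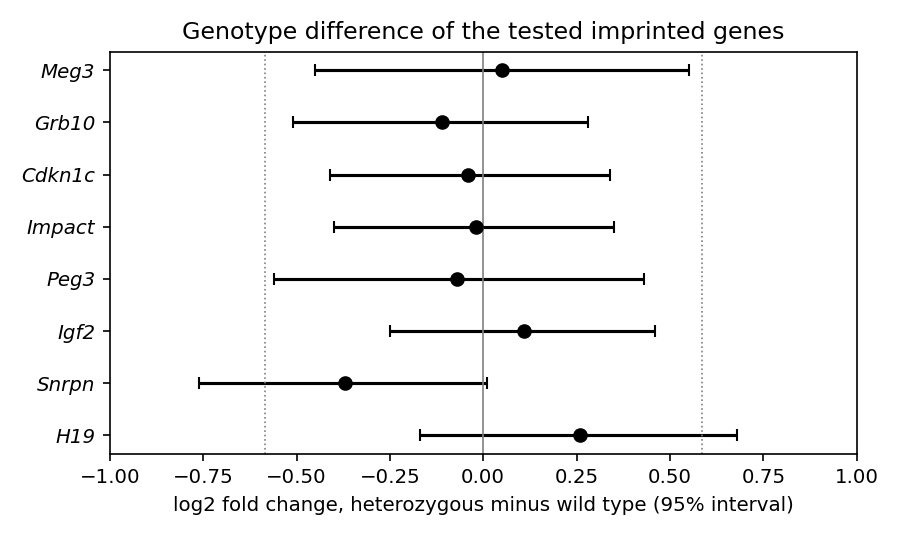
Log2 fold change of scaled TPM + 1, heterozygous minus wild type, for the 8 tested members, with 95% intervals from limma (n = 2 per genotype). Dotted lines mark a fold change of 1.5 in each direction, and the interval of every member includes 0, that of *Snrpn* (-0.76 to 0.01) by the narrowest margin.

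At the *H19* and *Igf2* locus, both genes were expressed in every heart. *H19*, the maternally expressed growth-restraining RNA, was measured at 3.13 and 2.08 scaled TPM in the wild type and at 3.45 and 3.08 in the heterozygotes. Wild-type replicate 2 was the lowest, and wild-type replicate 1 lay between the heterozygous hearts. The means were 2.60 ± 0.747 and 3.26 ± 0.263 (SD, n = 2 each). The fold change was 1.19 with a 95% interval of 0.892 to 1.60 (log2 0.26, SE 0.18, limma adjusted p = 0.558). *Igf2*, the paternally expressed insulin-like growth factor 2, was measured at 6.15 and 5.61 in the wild type and at 5.87 and 6.96 in the heterozygotes. Heterozygous replicate 2 was the highest, and heterozygous replicate 1 lay between the wild-type hearts. The fold change was 1.08 with an interval of 0.839 to 1.38 (log2 0.11, SE 0.15, adjusted p = 0.787). Both intervals include no change, and differences inside them were not detectable with 2 mice per genotype. The number of reads behind a TPM value is unknown.

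A ratio of 2 genes within a library does not depend on how libraries are scaled. The ratio of *H19* to *Igf2* was 0.509 and 0.370 in the wild type, against 0.587 and 0.442 in the heterozygotes. In every heart *H19* was the less abundant per length, and the genotypes overlapped. The log2 ratio differed by 0.23 between the genotypes (exact permutation test, two-sided, p = 0.667, adjusted over 8 ratios 0.889). *Igf2r*, the maternally expressed receptor that clears IGF2, was measured at 3.56 and 3.43 scaled TPM against 2.58 and 2.43. Its heterozygous values were both below the wild type, but it was not called (log2 fold change -0.36, SE 0.13, limma adjusted p = 0.368). The ratio of *Igf2* to *Igf2r* was accordingly 1.73 and 1.63 in the wild type, against 2.27 and 2.87 in the heterozygotes. It did not overlap between the genotypes, with a log2 difference of 0.60 (exact permutation p = 0.333, the smallest possible, adjusted 0.533).

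**Figure D3:**
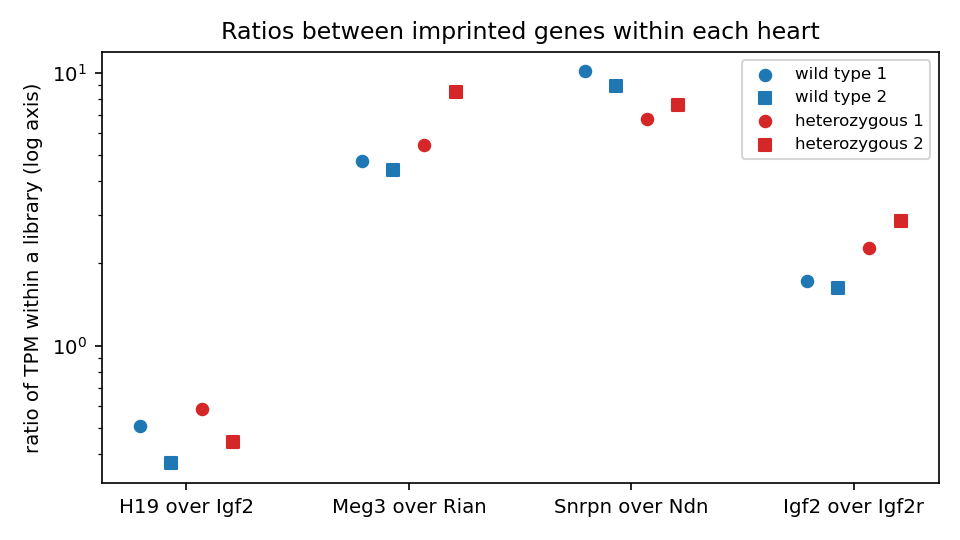
Ratios of deposited TPM within each library (log axis) for 4 of the 8 pairs of imprinted genes, with circles for replicate 1 and squares for replicate 2. The genotypes overlap for *H19* over *Igf2* (0.370 to 0.587) and are separate for the other 3 pairs shown, with the heterozygous ratio higher for *Meg3* over *Rian* and *Igf2* over *Igf2r* and lower for *Snrpn* over *Ndn*.

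Farther along the same cluster of chromosome 7 lie *Kcnq1ot1* and *Cdkn1c*, 161.8 kb apart. *Cdkn1c* (chr7:143458339-143461050) encodes p57, a maternally expressed inhibitor of cyclin-dependent kinases. It was measured at 10.9 and 9.26 scaled TPM in the wild type and at 10.3 and 9.34 in the heterozygotes. The heterozygous values lay between the wild-type values, and the fold change was 0.974 with an interval of 0.751 to 1.26 (log2 -0.04, SE 0.16, limma adjusted p = 0.933). *Kcnq1ot1* (chr7:143203458-143296549) is a long paternally expressed RNA that runs antisense within *Kcnq1* and silences its neighbours on that copy. Its deposited TPM was 0.07 and 0.07 in the wild type, against 0.06 and 0.07 in the heterozygotes, which differ by no more than the last decimal the table gives. Its scaled values, 0.0647 and 0.0552 against 0.0731 and 0.0769, did not overlap, a separation that is absent from the deposited values. The same rounding bears on the ratio of *Kcnq1ot1* to *Cdkn1c*, which was 0.00591 and 0.00596 against 0.00713 and 0.00824 (exact permutation p = 0.333, adjusted 0.533).

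*Meg3* (chr12:109541001-109571726), a maternally expressed RNA of the *Dlk1* and *Dio3* domain, was measured at 53.8 and 45.7 scaled TPM in the wild type and at 44.1 and 59.6 in the heterozygotes. The heterozygous hearts held both the lowest and the highest value. The fold change was 1.03 with an interval of 0.731 to 1.46 (log2 0.05, SE 0.21, limma adjusted p = 0.937). *Rian*, the next maternally expressed RNA of the domain and a host of small nucleolar RNAs, was measured at 11.3 and 10.4 against 8.09 and 7.01. Both heterozygous values of *Rian* were below the wild type, without a call (log2 fold change -0.47, SE 0.15, adjusted p = 0.342). The ratio of *Meg3* to *Rian* was 4.76 and 4.41 in the wild type, against 5.45 and 8.51 in the heterozygotes (log2 difference 0.57, exact permutation p = 0.333, adjusted 0.533). *Dlk1*, the paternally expressed protein-coding gene of the domain, was near 0, at a deposited TPM of 0.03 and 0.04 against 0.04 and 0.02. *Meg3* exceeded it by 906 to 2710 times, a ratio that rests on the rounded values of *Dlk1* and overlapped between the genotypes (exact permutation p = 1.0).

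The growth regulators outside these clusters also overlapped between the genotypes. *Grb10* (chr11:11930508-12038683), an adaptor that restrains insulin and IGF receptor signalling, was measured at 10.9 and 11.2 scaled TPM in the wild type and at 11.4 and 9.00 in the heterozygotes. The heterozygous hearts held the highest and the lowest value, and the fold change was 0.924 with an interval of 0.701 to 1.22 (log2 -0.11, SE 0.17, limma adjusted p = 0.794). *Peg3* (chr7:6703892-6730431), a paternally expressed zinc-finger protein, was measured at 6.55 and 8.30 against 8.48 and 5.75. Its heterozygous hearts again held both extremes (fold change 0.954, interval 0.676 to 1.35, log2 -0.07, SE 0.21, adjusted p = 0.909). *Usp29*, which shares its promoter region with *Peg3*, had a deposited TPM of 0.02 to 0.04. The ratio of *Peg3* to *Usp29* was 355 and 263 against 174 and 174 and rests on these rounded values (exact permutation p = 0.333, adjusted 0.533). *Impact* (chr18:12955852-12992950), a paternally expressed regulator of the GCN2 kinase, was measured at 8.77 and 9.07 against 9.66 and 7.93. The heterozygous values lay on both sides of the wild type (fold change 0.984, interval 0.759 to 1.28, log2 -0.02, SE 0.16, adjusted p = 0.960).

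*Snrpn* and *Ndn* belong to the paternally expressed domain whose human counterpart is lost in Prader-Willi syndrome, and lie 2206.4 kb apart. *Snrpn* (chr7:59982495-60140219) encodes SmN, a core protein of the spliceosome. It was measured at 5.30 and 4.59 scaled TPM in the wild type and at 3.13 and 4.09 in the heterozygotes. Both heterozygous hearts were below both wild-type hearts, the lowest being heterozygous replicate 1. The means were 4.95 ± 0.503 and 3.61 ± 0.676 (SD, n = 2 each). The fold change was 0.772 with a 95% interval of 0.591 to 1.01 (log2 -0.37, SE 0.16, limma adjusted p = 0.411), so *Snrpn* was not called. Its limma p before adjustment was 0.0557. Among the tested genes of each library it lay at percentiles 56.2 and 52.5 in the wild type and at 39.4 and 48.4 in the heterozygotes. Heterozygous replicate 1 also had the lowest sums of the fibroblast, endothelial, mural, epicardial, macrophage, skeletal muscle, adipocyte and ventricular cardiomyocyte markers. Its atrial, erythroid and neural sums were not the lowest. It had the highest share of mt- genes (68.6%). The part of these differences in the *Snrpn* value was not tested.

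The *Snrpn* value depends on how reads were divided between gene models. *Snurf*, which shares transcripts with *Snrpn* on the same strand, was listed at a deposited TPM of 2.25 in wild-type replicate 2 and at 0 in the other libraries, and *Gm38393*, another overlapping model, at 0.03 to 0.06. With the 3 models summed, an alternative added after the values were seen, the log2 fold change was -0.57 (limma adjusted p = 0.335). *Ndn* (chr7:62346569-62350262) encodes necdin, a growth suppressor of postmitotic neurons. It was measured at 0.527 and 0.513 scaled TPM against 0.463 and 0.538, and the genotypes overlapped. The ratio of *Snrpn* to *Ndn* was 10.1 and 8.95 in the wild type, against 6.76 and 7.59 in the heterozygotes, lower in both (log2 difference -0.41, exact permutation p = 0.333, adjusted 0.533). The ratio of *Grb10* to *Ndn* overlapped, at 20.7 and 21.9 against 24.7 and 16.7 (exact permutation p = 1.0).

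Without scaling factors, the direction of several members turned. On the deposited TPM scale, the median over all tested genes moved to a log2 fold change of -0.35, and all 8 tested members were lower in the heterozygotes, with 7 of 8 not overlapping where 70.1% of all tested genes did not. With mt- genes removed and TPM rescaled, the median was -0.31, and 6 of 8 members did not overlap where 63.3% of all tested genes did not. *H19* was then measured at a log2 fold change of -0.07 as deposited and 0.02 with mt- genes removed, and *Igf2* at -0.27 and -0.19. Relative to the median of all genes *H19* and *Snrpn* moved little. *H19* was 0.27 above it with the factors, 0.28 above it as deposited and 0.33 above it with mt- genes removed. *Snrpn* was at -0.36, -0.38 and -0.42 from the median in the same order. *Meg3*, close to the median throughout, was at 0.06, -0.03 and 0.03 from it. No member was called under any of these scalings, and the smallest adjusted p was 0.0891 as deposited and 0.072 with mt- genes removed, both for *Snrpn*.

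**Figure D4:**
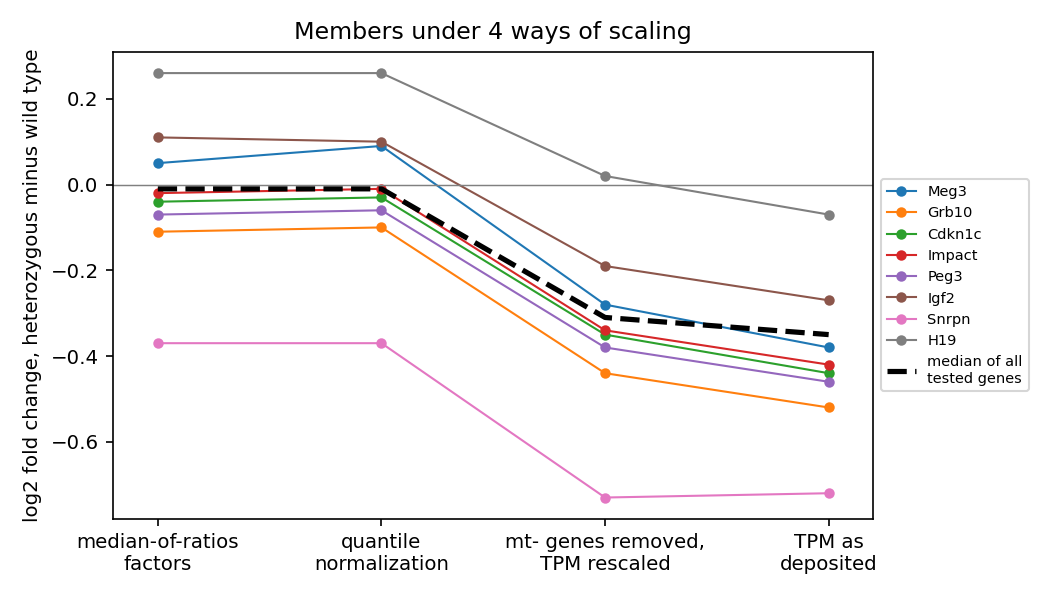
Log2 fold change, heterozygous minus wild type, of the 8 tested members under 4 ways of scaling the libraries, with the median of all tested genes as a dashed line. The lines of the members run roughly parallel to the median, which is -0.01 with factors or quantile normalization and -0.35 with TPM as deposited, with *H19* the highest and *Snrpn* the lowest in all 4.

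A longer list of 75 imprinted genes, 37 listed as maternally and 38 as paternally expressed, held the members and 72 symbols of the table. Of these 35 passed the filter and 0 were called in either direction, with 4 of 35 at an unadjusted p under 0.05, where 12.3% of all tested genes were. Both heterozygous values were above the wild type for 6 of 35, where 23.0% of all tested genes were, and below it for 9 of 35, where 24.0% were. The other 20 overlapped, so these shares were near the background. The median log2 fold change was -0.05, against -0.01 over all genes. In the maternal list 3 were above, 5 below and 12 overlapping (median -0.07). In the paternal list 3 were above, 4 below and 8 overlapping (median -0.02). Both are to be read against the same 23.0% above and 24.0% below over all tested genes. Whether each listed gene is imprinted in the adult heart was not measured. Beside *Meg3*, the abundant genes of the maternal list were *Gnas* and *Cd81*, both overlapping. *Gnas*, which encodes a G protein subunit, was measured at 111 and 119 scaled TPM against 100 and 118. *Cd81*, a tetraspanin, was measured at 31.0 and 34.8 against 25.5 and 33.3. The non-overlapping genes with the widest differences were *Art5*, an ADP-ribosyltransferase, on the lower side and *Snhg14* on the higher side. *Art5* was measured at 8.54 and 8.43 against 4.09 and 5.59 (log2 fold change -0.71, SE 0.17, limma adjusted p = 0.307). *Snhg14*, the host RNA that extends through the *Snrpn* domain and lies antisense to *Ube3a*, was measured at 30.1 and 20.5 against 32.0 and 41.2 (log2 fold change 0.53, SE 0.23, adjusted p = 0.411). *Snhg14* and *Snrpn* thus stood on opposite sides of 0 in the same domain, with neither called. *Inpp5f*, a phosphoinositide phosphatase, was measured at 4.42 and 3.69 against 5.97 and 5.15 (log2 fold change 0.38, SE 0.15, adjusted p = 0.391). In deposited TPM *Snhg14* and *Inpp5f* overlapped between the genotypes, while *Art5* was still wholly lower.

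**Figure D5:**
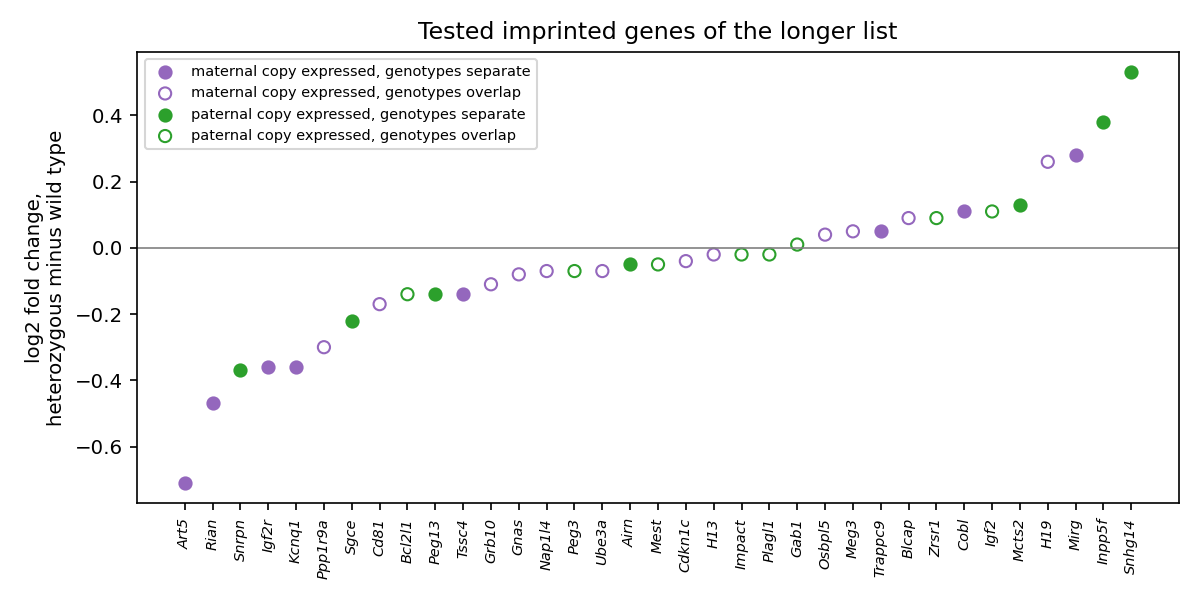
Log2 fold change, heterozygous minus wild type, of the 35 tested genes of the longer imprinted list, ordered by value. Genes listed as maternally expressed are purple and those listed as paternally expressed are green. Filled points are the 15 genes whose genotypes did not overlap, and both colours occur on both sides of 0, from -0.71 for *Art5* to 0.53 for *Snhg14*.

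A list of 12 genes around *Igf2* and *H19* includes these genes themselves. Of the 12 listed genes 6 were tested and 0 were called. *Ctsd*, the lysosomal protease cathepsin D, was measured at 79.2 and 93.9 scaled TPM against 48.7 and 61.5, both heterozygous values being lower (log2 fold change -0.65, SE 0.20, limma adjusted p = 0.340). *Mrpl23*, a protein of the mitochondrial ribosome, was measured at 29.1 and 30.5 against 17.4 and 27.4 (log2 fold change -0.43, SE 0.23, adjusted p = 0.474). *Lsp1*, an actin-binding protein of leukocytes, was measured at 12.0 and 11.6 against 13.4 and 17.3 (log2 fold change 0.34, SE 0.17, adjusted p = 0.455). Of the 6 tested genes of this list 1 was above (*Lsp1*) and 3 were below (*Ctsd*, *Mrpl23* and *Tnni2*). The 2 that overlapped were *H19* and *Igf2* themselves. The deposited TPM of *Tnni2* averaged 1.83 in the wild type and 0.965 in the heterozygotes, the latter below the filter. *Tnni2* was thus tested only through the group where it was higher. The separation of *Lsp1* was absent from the deposited TPM, at 12.96 and 14.74 against 10.98 and 15.74. Over all tested genes 23.0% were above and 24.0% below, and 6 genes are too few to read a share from. *Ins2* was listed at 0 in all 4 libraries.

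Of 24 genes of the IGF axis 12 were tested and 0 were called, where 0.0299% of all tested genes were called lower and 0.0% higher. The genotypes did not overlap for 1 above and 4 below, with 7 overlapping, near the 47.0% of all tested genes that did not overlap, and the median log2 fold change was -0.12. *Igfbp7*, an IGF-binding protein of vessels, was the most abundant, at 50.0 and 55.0 scaled TPM against 38.7 and 60.1. *Grb14*, a relative of *Grb10*, was measured at 23.3 and 24.8 against 17.5 and 22.3. *Igfbp5*, another binding protein, was measured at 3.17 and 3.69 against 1.72 and 2.31, both heterozygous values being lower (log2 fold change -0.56, SE 0.16, limma adjusted p = 0.328). *Igf2bp2*, an RNA-binding protein of *Igf2* transcripts, was low in all hearts, at 0.988 and 0.473 against 2.44 and 1.04 (log2 fold change 0.63, SE 0.27, adjusted p = 0.409). Its deposited TPM averaged 0.835 in the wild type, below the filter, and 1.48 in the heterozygotes. It was thus tested only through the group where it was higher, and it is the 1 gene counted as above. As deposited, its genotypes overlapped.

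Factors that keep or write imprints were listed as well, 20 in all. Of these 14 were tested and 0 were called, with 4 above, 0 below and 10 overlapping, where 23.0% of all tested genes were above and 24.0% below, and a median log2 fold change of 0.01. *Trim28*, the corepressor that protects methylated imprints, was measured at 25.5 and 29.5 scaled TPM against 41.5 and 41.6, both heterozygous values being higher (log2 fold change 0.58, SE 0.17, limma adjusted p = 0.334). *Ezh2*, the methyltransferase of Polycomb complex 2, was measured at 3.62 and 3.01 against 5.12 and 4.66 (log2 fold change 0.45, SE 0.15, adjusted p = 0.342). *Ehmt2*, a histone H3 lysine 9 methyltransferase, was measured at 20.1 and 21.5 against 23.9 and 28.7 (log2 fold change 0.32, SE 0.17, adjusted p = 0.468). In deposited TPM *Ezh2* was still wholly higher, but *Trim28* and *Ehmt2* overlapped. *Tet3*, the other gene counted as above, was wholly lower as deposited. *Zfp445*, a zinc-finger protein that recruits *Trim28* to imprints, overlapped, at 23.3 and 26.9 against 30.9 and 19.7.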

How the data were processed

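Heart RNA of 4 mice aged 8 weeks was analysed, in 2 groups by the labelled genotype, with 2 libraries each. The authors trimmed reads with Trim Galore, aligned them to mm10 with STAR and quantified genes with RSEM, and they deposited TPM per gene, rounded to 2 decimals. TPM keep no read depth, so counting errors are unknown and no count model was fitted. The read counts were not used here. The annotation is not given in the sources used here, and 55141 identifiers matched GENCODE M21.

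Median-of-ratios factors were computed over genes above 0 in every library. Genes whose TPM averaged 1 or more were tested on log2(scaled TPM + 1) with limma (3.58.1, R 4.3.3; lmFit, eBayes with trend, two-sided), adjusted by Benjamini-Hochberg over 10036 genes and called at adjusted p under 0.05 and fold over 1.5. Fold changes are of scaled TPM + 1 and understate changes of low genes. Ratios used deposited TPM and exact permutation tests (scipy 1.17.1; tables with Python 3.11.15 and pandas 2.3.3). Scripts were tested on simulated data.

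The members and lists were chosen with earlier results of these data known. Named genes are the members, *Ctcf*, the genes of the ratios and, from each of 5 lists (maternal, paternal, *Igf2*-*H19* neighbours, IGF axis, imprint maintenance), called genes, the 3 most abundant tested genes and the 3 with the largest change among those not overlapping. Alternatives changed the scaling, pseudocount, filter, empirical Bayes step, replicate block, symbol rows and each library in turn.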

Additional observations from a re-analysis of the deposited data

How the results depend on the processing

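No member was called under any of the 16 alternatives, of which factors over the tested genes and summed overlapping models were chosen after seeing the data. The number of genes called over the whole table was small and moved by more than 1.5 times under several of them, from 0 higher and 3 lower to 2 and 11 without scaling factors, 2 and 12 after removal of mt- genes, and 0 lower with no filter, where 2133 genes had an unadjusted p under 0.05. It was 1 lower with rows summed over a symbol. The number of members with genotypes that did not overlap went from 1 to 7 without scaling factors, 6 after removal of mt- genes, 2 with no filter, where *Kcnq1ot1* entered, and 0 with a mean TPM of at least 5, where *Snrpn* was not tested.

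Without scaling factors, *H19* turned to a log2 fold change of -0.07, *Meg3* to -0.38 and *Igf2* to -0.27, and with mt- genes removed *Meg3* turned to -0.28 and *Igf2* to -0.19. The median of all tested genes was -0.35 and -0.31 under these scalings, and the cause of each member's turn was not tested. *Snrpn* kept its direction under every alternative in which it was tested, from -0.73 to -0.21.

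Leaving out 1 library at a time, with the lone mouse of the group assumed to vary like the others, 4 to 12 genes were called higher and 3 to 25 lower (6 and 17 without wild-type replicate 1, 8 and 25 without wild-type replicate 2, 12 and 4 without heterozygous replicate 1, 4 and 3 without heterozygous replicate 2). Members that did not overlap numbered 2 to 6, where 66.0% to 81.1% of all tested genes did not. The log2 fold change ranged from -0.15 to 0.06 for *Cdkn1c*, -0.32 to 0.17 for *Peg3*, -0.17 to 0.26 for *Meg3*, -0.28 to 0.04 for *Grb10*, -0.16 to 0.10 for *Impact*, 0.04 to 0.46 for *H19*, 0.00 (without heterozygous replicate 2) to 0.21 (without heterozygous replicate 1) for *Igf2* and -0.53 to -0.23 for *Snrpn*. The log2 ratio ranged from 0.00 (without wild-type replicate 2) to 0.46 (without wild-type replicate 1) for *H19* over *Igf2*, with 0.03 without heterozygous replicate 1 and 0.44 without heterozygous replicate 2. It ranged from 0.25 (without heterozygous replicate 2) to 0.89 (without heterozygous replicate 1) for *Meg3* over *Rian*, from -0.89 to 0.69 for *Meg3* over *Dlk1* and from -0.35 to 0.21 for *Grb10* over *Ndn*. The cause of these differences was not tested.

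With the replicate number as a replicate block, 3 genes were called higher and 8 lower, and 0 members. Same-numbered libraries are different mice, and the deviations of the same-numbered libraries correlated at 0.101. Whether they shared a litter or a preparation is not given in the labels and cannot be told from this value. With 2 mice per genotype and no read depth, differences within the intervals given for each member were not detectable.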
